A study of Oryctolagus cuniculus with 9 samples.

Results

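Keratins and cornified envelope genes are followed here in rabbit urethral tissue. The rule took every row of the count table with a keratin symbol and 18 named genes of stratified and cornifying epithelium, and it found 43 rows of 28788, made up of 28 keratins and 15 other genes. SPRR1A, SPRR1B and CALML5 had no row under these symbols. Of the 43 rows, 29 were detected, with at least 10 counts in at least 3 libraries.

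The series belongs to work on a hydrogel stent for urethral repair in rabbits. Messenger RNA of urethral tissue was sequenced in 9 libraries, 3 each of the codes S9, S7 and S6, and each library held 35127085 to 36832773 counts. The labels give no treatment, time, strain, sex or age for a code, name no control, and tie no library to an animal, so p-values measure only the spread between these libraries. Libraries are written as code and number (S9_1, S9_2 and S9_4; S7_2, S7_3 and S7_4; S6_2, S6_3 and S6_4), and values are listed in that order within a code. All 10 general epithelial markers, among them EPCAM and CDH1, and all 6 smooth muscle markers were detected, as were 7 of 8 urothelial markers, UPK3B being the exception.

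Keratins build the intermediate filaments of epithelial cells from pairs of an acidic type I and a basic type II chain. KRT8 with KRT18 is the pair of simple epithelia and is also made by urothelium, KRT5 with KRT14 marks the basal layer of stratified epithelia, and KRT4 with KRT13 marks the upper layers of non-cornifying mucosa. KRT1 with KRT10 belongs to cornifying epidermis, and KRT6 forms, KRT16 and KRT17 are induced at wound edges. In cornifying cells, transglutaminases link proteins such as involucrin, envoplakin and periplakin into an envelope under the membrane. The mammalian urethra is lined by urothelium near the bladder and by stratified squamous epithelium near its opening.

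The most abundant keratins of these libraries were those of simple epithelium, basal layer and non-cornifying mucosa. All 5 simple, both basal and both wound keratins with a row were detected, against 5 of 9 squamous and 4 of 9 hair and root sheath keratins. KRT19 was the most abundant member per length, with a mean of 939 FPKM over the 9 libraries (FPKM are the authors' counts scaled to gene length and library total). KRT15 followed with 506 FPKM, KRT8 with 461 FPKM, KRT4 with 406 FPKM, KRT7 with 172 FPKM, KRT13 with 147 FPKM and KRT18 with 100 FPKM. The lengths behind these values are those of the deposited rows, and they were 8811 bases for KRT5, 7591 for KRT13 and 6426 for KRT38, against 1388 to 3139 bases for the 15 other detected keratins. Per-length levels of these 3 genes are therefore low relative to their counts.

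Several squamous, hair and envelope genes were at or near 0. FLG, the filaggrin precursor of epidermal granules, and the hair keratin KRT35 had no count in any library. A count of 0 in a library was taken to allow an expected count of up to 3, or 0.0854 CPM at the lowest library total. The other 12 undetected rows, with 1 to 68 counts over all libraries, were the epidermal KRT2, the corneal KRT3, KRT24, KRT79, KRT26, KRT39, KRT40, KRT84 and KRT222, the envelope precursors SPRR3 and CRNN, and the transglutaminase TGM3. TGM3 had 37 counts in S7_4, the highest single value among them, and the third highest count of each of these 12 rows was 7 or less. CNFN, an envelope protein, was the detected member with the fewest counts, at 106 in all. In the RefSeq table of assembly mOryCun1.1, 2 rows deposited under LOC numbers carry symbols of listed keratins, LOC100353415 as KRT1 and LOC100339844 as KRT33A. They are no members, both were detected, and neither was called in a comparison (edgeR adjusted p from 0.458 to 0.910). LOC100353415 had 33 to 240 counts per library and LOC100339844 had 0 to 25. That table held 8417 of the 12867 LOC numbers, so further keratins, KRT14 and KRT6 forms included, may be among the rows without a name, and the class shares and detected counts cover named rows only.

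**Figure D1:**
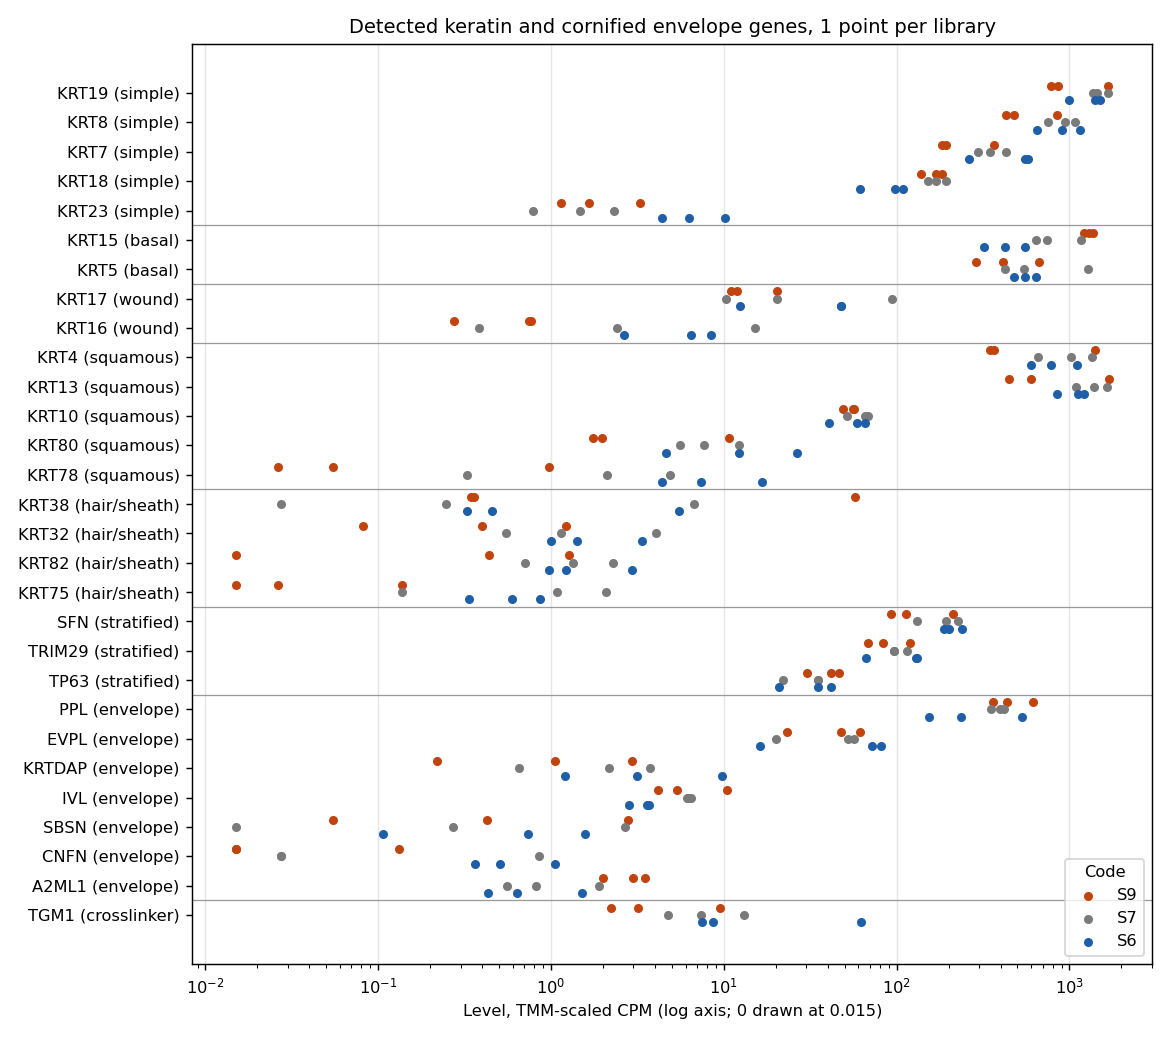
Levels of the 29 detected members in each library, in TMM-scaled CPM on a log axis, grouped by class, with S9, S7 and S6 from top to bottom within each gene. KRT19, KRT15, KRT8, KRT4 and KRT13 are the 5 most abundant by count, while the hair keratins and several envelope genes lie around 1 CPM, and the 3 S9 points of KRT15 lie to the right of the 3 S6 points.

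The basal share of the keratins was higher in all S9 than in all S6 libraries. Per length most of it was KRT15, while in counts KRT5 was above KRT15 in S7_3, S6_3 and S6_4 and below it elsewhere. As shares of the summed FPKM of all 28 keratin rows, basal keratins made up 37.1%, 36.3% and 22.9% in the S9 libraries, 24.3%, 16.6% and 14.1% in S7, and 12.3%, 12.3% and 11.04% in S6. All S9 and all S7 libraries thus lay above all S6 libraries, and S9 and S7 overlapped. Simple keratins held 49.7%, 50.4% and 52.4% in S9, 59.2%, 57.1% and 60.9% in S7, and 63.6%, 59.4% and 72.0% in S6. Every S9 library lay below every library of the other codes, and S7 and S6 overlapped. Squamous keratins averaged 16.5% ± 6.64 in S9, 21.5% ± 4.63 in S7 and 21.9% ± 5.63 in S6 (SD, n = 3 each). These shares are descriptions with no test, since the genes were chosen with earlier results of these data known. Computed from counts, not per length, the basal share was 39.0%, 37.7% and 24.4% in S9, 25.9%, 25.5% and 17.2% in S7, and 15.8%, 19.4% and 16.9% in S6, so S9 still lay above S6 but S7 overlapped both. The simple share from counts was 37.6%, 39.9% and 36.8% in S9, 44.5%, 36.6% and 44.7% in S7, and 47.2%, 39.6% and 55.6% in S6, so the codes overlapped. Without the most abundant member of each class, the basal share averaged 6.67% in S9, 7.40% in S7 and 6.34% in S6, and the simple share 75.0%, 73.1% and 75.7%, and neither set the codes apart.

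Keratin rows together took 0.576% ± 0.261 of all counts in S9, 0.692% ± 0.0728 in S7 and 0.574% ± 0.0988 in S6 (SD, n = 3 each), and the codes overlapped. In bulk tissue, fewer epithelial cells and less keratin RNA per cell cannot be told apart. The summed level of the 10 general epithelial markers, in CPM before TMM scaling, as in every sum over a marker list, ran from 1131 to 2009 in S9, 1675 to 2277 in S7 and 1177 to 3922 in S6, and none of the 10 was called in any comparison.

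**Figure D2:**
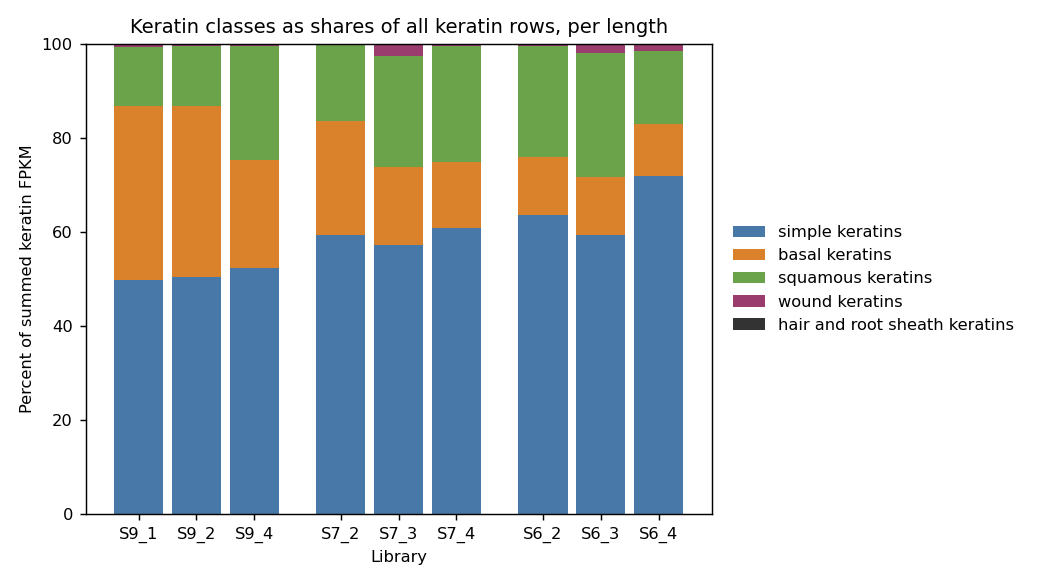
Share of each keratin class in the summed FPKM of all keratin rows, in percent, with 1 bar per library and S9 on the left. The basal share is 22.9% to 37.1% in S9, 14.1% to 24.3% in S7 and 11.04% to 12.3% in S6, and hair and root sheath keratins are too small to see.

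Counts were compared between codes with edgeR, and a gene was called at an adjusted p below 0.05. In S9 against S6, 2 of the 29 detected members, KRT15 and KRT18, were called, both higher, which is 6.9% against 12.4% of the 17102 genes tested, with 6.02% of all genes called higher. DESeq2 called 9 members, or 31.0% against 24% of all genes. Of these KRT15, KRT18, IVL and A2ML1 were higher, and KRT16, KRT23, KRT75, KRT78 and TGM1 lower. Limma-voom also called 9, against 23.7% of all genes, with KRT15, KRT18 and A2ML1 higher and KRT7, KRT8, KRT78, KRT80, CNFN and SFN lower. By edgeR, 11 members had an unadjusted p below 0.05, or 37.9% against 31.2% of all genes, and 21 of the 29 fold changes were below 0. The median log2 fold change of the members was -0.36, against -0.011 over all genes tested and -0.91 over the 10 general epithelial markers. The libraries of S9 and S6 did not overlap for 9 members, or 31.0%, against 35.5% of all genes. The share of members called was thus below that of all genes by edgeR and above it by DESeq2 and limma-voom, and the share with separate codes was close to it. In S7 against S6 edgeR called 0 members, against 0.111% of all genes (0.0468% higher and 0.0643% lower), with 4 members at an unadjusted p below 0.05, or 13.8% against 17.1% of all genes. There DESeq2 called 3 members (KRT15 and KRT18 higher, KRT23 lower), or 10.3% against 8.29%, and limma-voom called KRT18 higher, or 3.45% against 1.79%. In S9 against S7 edgeR, DESeq2 and limma-voom each called 0 members, and edgeR called 0% of all genes, with 2 members at an unadjusted p below 0.05, or 6.9% against 9.21% of all genes. DESeq2 called 0.719% of all genes there and limma-voom 0%. The libraries did not overlap for 4 members in S7 against S6, or 13.8% against 21.2% of all genes, and for 2 in S9 against S7, or 6.9% against 17.2%. The test across the 3 codes called KRT15 only, or 3.45% of members against 2.43% of all genes. Each pair of comparisons shares the libraries of 1 code.

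Among the basal keratins, KRT15 rose in S9 relative to S6, while KRT5 was not called. KRT15, a type I keratin of basal cells that in human and mouse also marks hair follicle stem cells, was at 1302, 1212 and 1367 CPM in S9, 1169, 638 and 746 CPM in S7, and 556, 322 and 422 CPM in S6 (CPM after scaling by TMM, a correction for library composition). The 3 codes did not overlap, with S9 highest and S6 lowest. KRT15 was 2.98-fold higher in S9 than in S6 (log2 fold change 1.58 with SE 0.28, edgeR adjusted p = 0.0196). The test across the 3 codes also called it (edgeR adjusted p = 0.0489). Its log2 fold change was 0.97 with SE 0.27 in S7 against S6 (edgeR adjusted p = 0.141) and 0.60 with SE 0.27 in S9 against S7 (edgeR adjusted p = 0.543), and neither passed by edgeR, while DESeq2 called it in S7 against S6 (DESeq2 adjusted p = 0.0137).

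KRT5, the type II keratin of the same cells, was at 412, 288 and 665 CPM in S9, 426, 1285 and 544 CPM in S7, and 479, 642 and 556 CPM in S6. The codes overlapped, and the highest value was that of S7_3. Its log2 fold change in S9 against S6 was -0.30 (SE 0.43, edgeR adjusted p = 0.686). The ratio of KRT5 to KRT15 in FPKM was 0.0616, 0.0463 and 0.0947 in S9, 0.0709, 0.392 and 0.142 in S7, and 0.168, 0.388 and 0.256 in S6, so each S9 library lay below each S6 library. The length of the KRT5 row, 8811 bases against 1716 for KRT15, lowers this ratio in every library. In counts KRT5 was above KRT15 in S7_3, S6_3 and S6_4.

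TP63, the transcription factor that maintains basal cells, was at 46.5, 30.3 and 41.7 CPM in S9, 22.1, 35.0 and 35.0 CPM in S7, and 41.4, 21.0 and 35.2 CPM in S6. TRIM29, a tripartite motif protein of basal epithelial cells, was at 83.2, 68.6 and 120.04 CPM in S9, 96.4, 96.8 and 115 CPM in S7, and 131, 66.0 and 129 CPM in S6. SFN, the adaptor protein stratifin of stratified epithelia, was at 114, 93.3 and 211 CPM in S9, 131, 227 and 193 CPM in S7, and 201, 187 and 239.6 CPM in S6. The codes overlapped for all 3 genes, and S9_1 and S9_2 were the lowest libraries for SFN. None of these 3 was called by edgeR (edgeR adjusted p from 0.242 to 0.926 over the comparisons), but SFN was called lower in S9 than in S6 without S9_4 (log2 fold change -0.996, edgeR adjusted p = 0.0441). With all libraries limma-voom called SFN lower in S9 than in S6 (adjusted p = 0.0373).

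The KRT15 call did not hold with each library left out. It was lost without S9_1 (log2 fold change 1.58, edgeR adjusted p = 0.0880), without S9_2 (1.62 and 0.0751) and without S6_4 (1.57 and 0.0691), with nearly the same fold change each time. Of all genes tested in S9 against S6, these fits called 0, 4 and 89, in that order, against 2115 with all 9 libraries. The call across the 3 codes held only without S7_2 or S6_2.

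Among the 5 simple keratins KRT18 rose in S9 relative to S6, and the other 4 were not called by edgeR. KRT18, the type I chain of the simple pair, was at 168, 138 and 184 CPM in S9, 192, 152 and 169 CPM in S7, and 109, 61.3 and 98.2 CPM in S6. The S9 and S7 libraries lay above all S6 libraries and overlapped each other. KRT18 was 1.82-fold higher in S9 than in S6 (log2 fold change 0.86 with SE 0.22, edgeR adjusted p = 0.0401). In S7 against S6 its log2 fold change was 0.93 (SE 0.22, edgeR adjusted p = 0.117), which did not pass, though DESeq2 (adjusted p = 0.00631) and limma-voom (adjusted p = 0.0468) called it, and in S9 against S7 it was -0.067 (SE 0.22). The call was lost without S9_1 (0.85, edgeR adjusted p = 0.126), S9_2 (0.97 and 0.0905), S9_4 (0.79 and 0.0810), S7_4 (0.88 and 0.0633), S6_3 (0.67 and 0.0570) or S6_4 (0.95 and 0.0922). It was also lost in the 2 codes alone (0.86, edgeR adjusted p = 0.0731) and by limma on log2(FPKM + 1) (0.94, limma adjusted p = 0.0523). Of all genes tested in S9 against S6, edgeR called 2115 with all libraries and 0, 4 and 89 without S9_1, S9_2 and S6_4. It called 1947, 1197 and 1025 without S9_4, S7_4 and S6_3, and 1435 in the 2 codes alone.

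KRT8, its type II partner, was at 428, 476 and 852 CPM in S9, 755, 941 and 1082 CPM in S7, and 903, 646 and 1150 CPM in S6. S9_1 and S9_2 lay below all other libraries, S9_4 did not, and the log2 fold change in S9 against S6 was -0.62 (SE 0.31, edgeR adjusted p = 0.215). Limma-voom called KRT8 lower in S9 than in S6 (adjusted p = 0.0276). The ratio of KRT8 to KRT18 in FPKM was 2.07, 2.81 and 3.77 in S9, 3.20, 5.05 and 5.20 in S7, and 6.72, 8.57 and 9.53 in S6. Every S9 and S7 library thus lay below every S6 library, and S9 and S7 overlapped. The ratio was chosen after the values were seen and was not tested. Reads of near-identical copies of a keratin, processed pseudogenes included, could be split between rows or left out in counting, and this was not tested.

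The type I keratin KRT19, found in simple epithelia and in basal cells of mucosa, was at 861, 787 and 1661 CPM in S9, 1445, 1376 and 1670 CPM in S7, and 1496, 993 and 1413 CPM in S6. The codes overlapped, with 2 low S9 libraries and 1 low S6 library (log2 fold change in S9 against S6 -0.24 with SE 0.30, edgeR adjusted p = 0.637). KRT7, a type II keratin of urothelium and glands, was at 193, 184 and 364 CPM in S9, 347, 295 and 431 CPM in S7, and 575, 262 and 552 CPM in S6. S6_2 and S6_4 were the highest and S6_3 lay among the other codes (log2 fold change in S9 against S6 -0.91 with SE 0.36, edgeR adjusted p = 0.125). Limma-voom called KRT7 lower in S9 than in S6 (adjusted p = 0.0165). KRT23, a type I keratin at low level, was at 1.67, 3.29 and 1.14 CPM in S9, 0.791, 2.31 and 1.47 CPM in S7, and 10.2, 6.27 and 4.40 CPM in S6. All S9 and S7 libraries lay below all S6 libraries, but it was not called in S9 against S6 (log2 fold change -1.78 with SE 0.56, edgeR adjusted p = 0.0670) or in S7 against S6 (-2.19, SE 0.57, edgeR adjusted p = 0.126), while DESeq2 called it lower in both (adjusted p = 0.0107 and 0.00436).

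**Figure D3:**
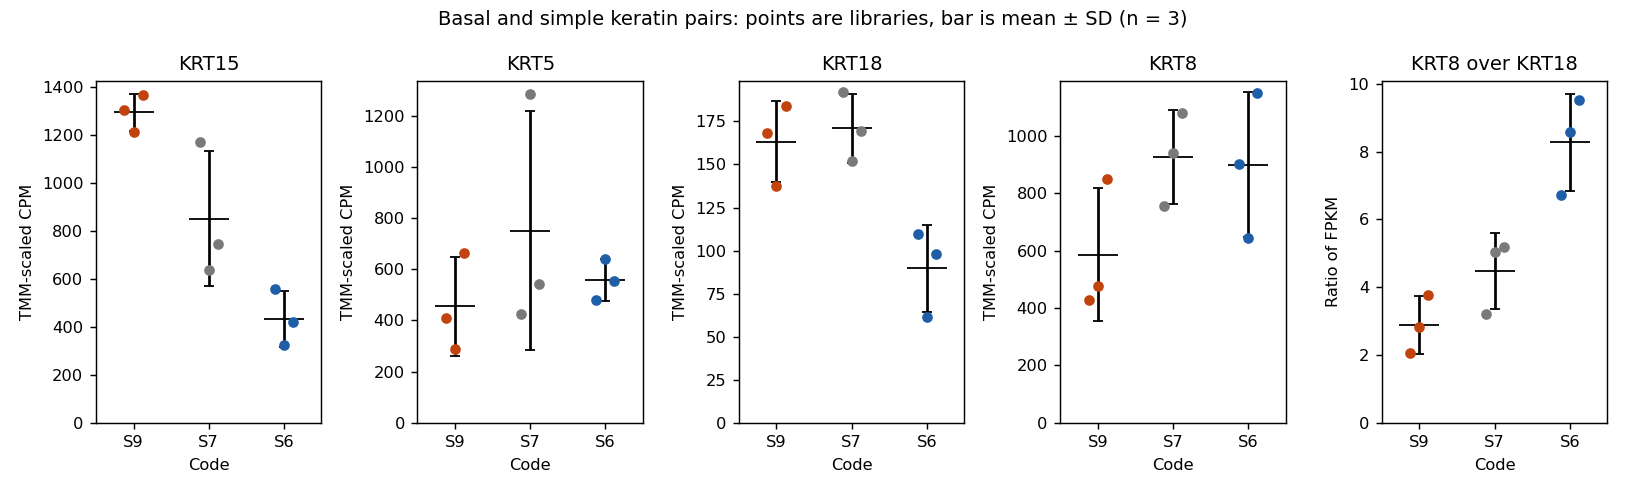
KRT15, KRT5, KRT18 and KRT8 in TMM-scaled CPM and the ratio of KRT8 to KRT18 in FPKM, with 1 point per library and bars for mean ± SD (n = 3), S9 on the left. KRT15 and KRT18 are higher in all S9 than in all S6 libraries, and the ratio is 2.07 to 3.77 in S9, 3.20 to 5.20 in S7 and 6.72 to 9.53 in S6.

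The squamous pair KRT4 and KRT13 was abundant in every code and was set apart by library rather than by code. KRT13 was at 598, 448 and 1689 CPM in S9, 1093, 1646 and 1394 CPM in S7, and 1218, 1117 and 842 CPM in S6. KRT4 was at 346, 367 and 1404 CPM in S9, 655, 1017 and 1350 CPM in S7, and 1110, 785 and 603 CPM in S6. For both genes S9_1 and S9_2 were the lowest of the 9 libraries and S9_4 was the highest. Neither was called in a comparison. In S9 against S6 their log2 fold changes were -0.22 (SE 0.45, edgeR adjusted p = 0.788) for KRT13 and -0.24 (SE 0.55, edgeR adjusted p = 0.810) for KRT4, and both turned positive without S9_1 (0.024 and 0.099) and without S9_2 (0.11 and 0.072), and that of KRT4 also without S6_2 (0.024). Without S9_4 they were -1.002 for KRT13 and -1.21 for KRT4, still not called (edgeR adjusted p = 0.0506 and 0.0674). The ratio of KRT4 to KRT13 in FPKM stayed between 2.10 and 3.51 in all libraries. It depends on row lengths of 2094 bases for KRT4 and 7591 for KRT13, and in counts KRT13 was above KRT4 in every library.

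S9_4 stood above the other S9 libraries well beyond this pair. KRT4, KRT13, KRT7, KRT8 and KRT19 were 1.95 to 4.08 times as high there as the mean of S9_1 and S9_2 in CPM before TMM scaling, and KRT5 1.96 times, whereas KRT15, KRT18 and TP63 were 1.124, 1.24 and 1.116 times as high. On the same unscaled CPM, 20 of the 29 detected members had their highest S9 value in S9_4, as had all 10 general epithelial markers. In S6, S6_3 was the low library, with the lowest S6 value of 16 members and of all 10 epithelial markers. How many of all genes tested had the same extreme library was not counted. The part of epithelial content in these differences was not tested.

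KRT10, the type I keratin of cornifying cells, was at 56.2, 56.9 and 48.6 CPM in S9, 51.5, 67.9 and 65.4 CPM in S7, and 40.4, 65.4 and 58.6 CPM in S6. The codes overlapped, and the S6 libraries spanned nearly the whole range (log2 fold change in S9 against S6 -0.024 with SE 0.19, edgeR adjusted p = 0.951). Its sign changed with the setting, and the fold change ran from -0.20 to 0.15 over the alternatives. KRT78, a type II keratin of squamous epithelia, was low and uneven, with 1, 2 and 37 counts in S9, 12, 72 and 180 counts in S7, and 616, 144 and 274 counts in S6. All S9 libraries lay below all S6 libraries, and the log2 fold change of -4.73 with its SE of 1.38 (edgeR adjusted p = 0.0550) was just outside the threshold. KRT78 was called without S9_4 (-7.74, edgeR adjusted p = 0.0246) and without S7_2 (-4.73 and 0.0453). It was also called lower by DESeq2 (adjusted p = 0.000513), by limma-voom (adjusted p = 0.0447) and by limma on log2(FPKM + 1) and log2(FPKM + 0.1) (adjusted p = 0.0340 and 0.0300). KRT80, a type II keratin of differentiating epithelia, had 75, 64 and 406 counts in S9, 204, 261 and 452 in S7, and 980, 153 and 459 in S6, so the codes overlapped, and KRT80 was called in S9 against S6 only without S9_4 among the libraries left out in turn, and by limma-voom.

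Wound keratins were uneven between libraries, and KRT16 lay below KRT17 in each. KRT17 was at 20.3, 11.04 and 11.9 CPM in S9, 10.3, 93.5 and 20.4 CPM in S7, and 12.4, 47.4 and 47.9 CPM in S6. S7_3 was the highest library, followed by S6_4 and S6_3, and S6_2 lay among the S9 values. KRT16 was at 0.767, 0.274 and 0.741 CPM in S9, 0.382, 15.2 and 2.42 CPM in S7, and 2.65, 8.39 and 6.49 CPM in S6. All S9 libraries lay below all S6 libraries, while S7 spanned both. Neither was called in S9 against S6 (KRT17 log2 fold change -1.32 with SE 0.79, edgeR adjusted p = 0.291; KRT16 -3.29, SE 1.14, edgeR adjusted p = 0.0888). KRT16 was called without S7_2 (-3.29, edgeR adjusted p = 0.0389) or S7_3 (-3.26 and 0.0393), which are in neither code compared. It was also called lower in the compared codes alone (-3.29, edgeR adjusted p = 0.0330) and by DESeq2 (-3.30, DESeq2 adjusted p = 0.00655), but not by limma-voom. Per length, the wound class held 0.227% to 0.665% of keratin FPKM in S9, 0.245% to 2.36% in S7 and 0.329% to 1.78% in S6. KRT14, KRT16 and KRT17 are close relatives, and the table has no row under the symbol KRT14 or any KRT6 symbol, so reads of those genes were not analysed here.

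Neutrophil genes moved with the same comparison. In CPM before TMM scaling, the 6 listed neutrophil genes summed to 452 to 754 in S9, 2898 to 6127 in S7 and 8504 to 14798 in S6, with 5 tested and all 5 called lower in S9 than in S6. Most of each sum was S100A12, S100A9 and S100A8, whose S6 means were 7522, 3469 and 1232 TMM-scaled CPM. Those of CXCR2 and CSF3R were 22.1 and 9.60 CPM. Of all genes tested, 12.4% were called in S9 against S6, with 6.34% lower and 6.02% higher. In CPM before TMM scaling, the 6 leukocyte markers summed to 92.3 to 149 in S9, 167 to 240 in S7 and 331 to 1037 in S6, and all 6 were called lower in S9 than in S6. The 6 smooth muscle markers summed to 6557 to 11746 in S9, 2816 to 10148 in S7 and 1752 to 3258 in S6, with 5 called higher in S9 than in S6. The part of these cell types in the keratin differences was not tested.

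**Figure D4:**
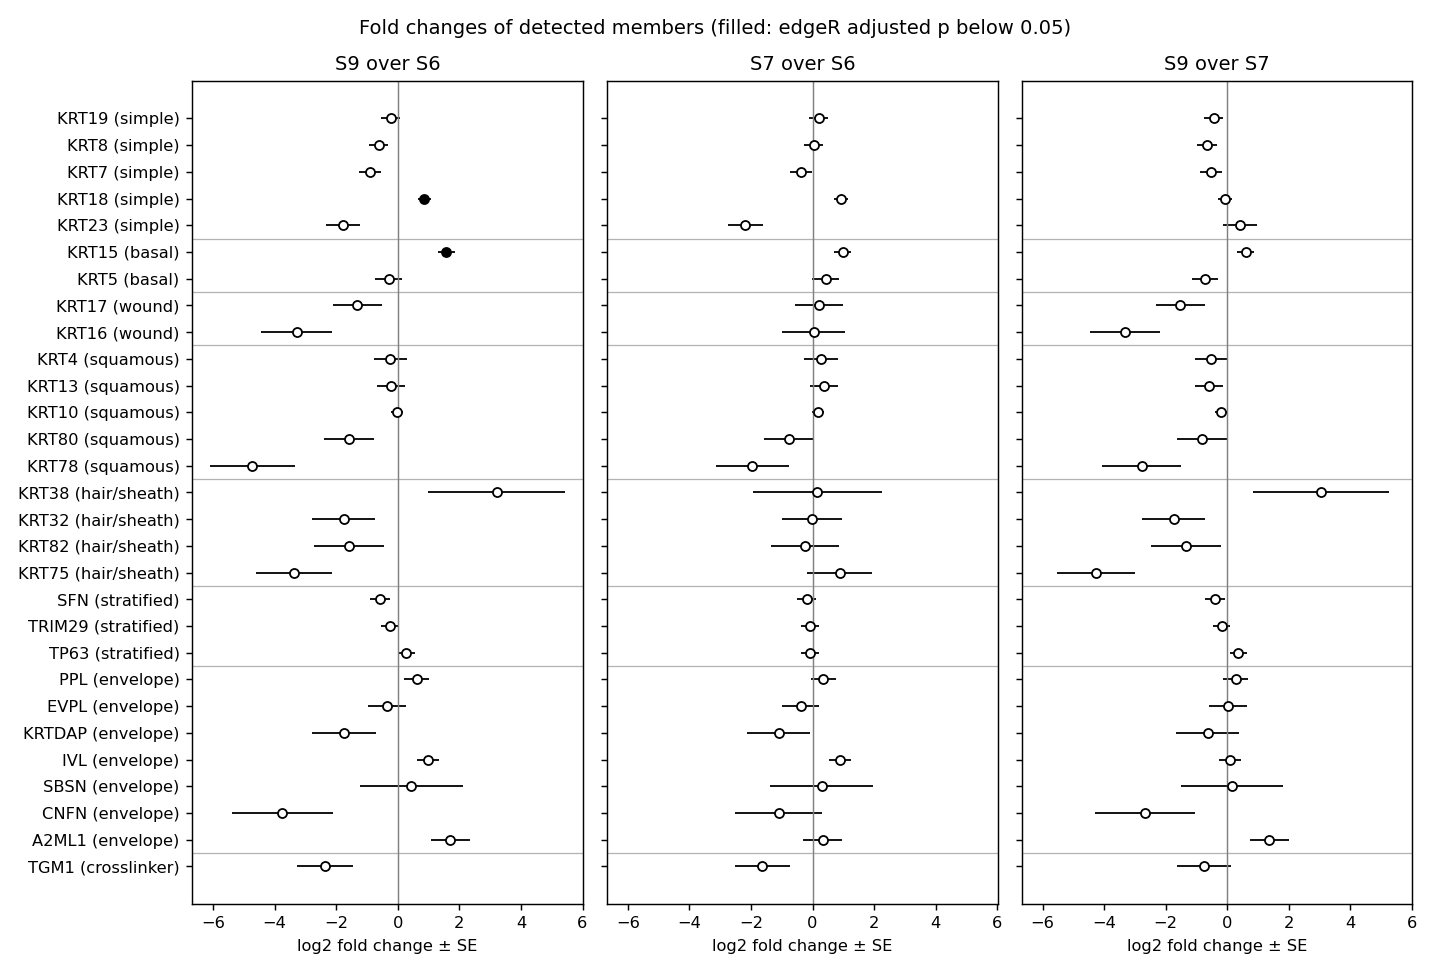
Log2 fold changes ± SE of the 29 detected members for S9 over S6, S7 over S6 and S9 over S7, with classes divided by lines and filled points for an edgeR adjusted p below 0.05. KRT15 and KRT18 in S9 over S6 are the only filled points, and the low-level hair and envelope genes have the widest errors.

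The hair and root sheath keratins were at 4.03 CPM or less in every library, apart from KRT38 in 3 libraries. KRT38, a hair keratin in human, had 13, 13 and 2165 counts in S9, 1, 230 and 9 counts in S7, and 12, 15 and 204 counts in S6. The 3 high libraries, S9_4, S7_3 and S6_4, are 1 of each code. They are also the libraries in which mitochondrially encoded genes held 0.243% to 0.419% of the counts, against 0.910% to 1.52% in the other 6. These genes did not fall alike. ATP6 was at 21.5, 22.3 and 25.9 CPM in S9_4, S7_3 and S6_4, against 1946 to 3258 CPM in the other 6. CYTB was at 2137, 1939 and 1221 CPM in the same 3, against 1461 to 2590 CPM, and ND4 at 350, 303 and 242 CPM, against 219 to 362 CPM. KRT38 had 204 to 2165 counts in these 3 libraries and 1 to 15 in the other 6. Of all 17102 tested genes, 119, or 0.696%, were likewise higher, in CPM before TMM scaling, in each of the 3 libraries than in each of the 6, SFN among them. The log2 fold change of KRT38 in S9 against S6 was 3.21 (SE 2.23, edgeR adjusted p = 0.364), and it was -2.55 without S9_4.

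KRT32, a hair cuticle keratin in human, had 15, 3 and 46 counts in S9, 20, 138 and 42 in S7, and 37, 111 and 53 in S6, with S7_3 the highest. KRT82, a further hair cuticle keratin in human, had 0, 16 and 48 counts in S9, 26, 78 and 49 in S7, and 45, 32 and 110 in S6. KRT75, a keratin of the follicle's companion layer in human, had 0, 5 and 1 counts in S9, 5, 71 and 40 in S7, and 22, 11 and 32 in S6, so all S9 libraries lay below all S6 libraries. None of the 3 was called by edgeR in a comparison (edgeR adjusted p from 0.101 to 0.997). DESeq2 called KRT75 lower in S9 than in S6 (adjusted p = 0.0295). Of the 6 listed hair follicle and skin appendage genes 4 were tested, and none was called.

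**Figure D5:**
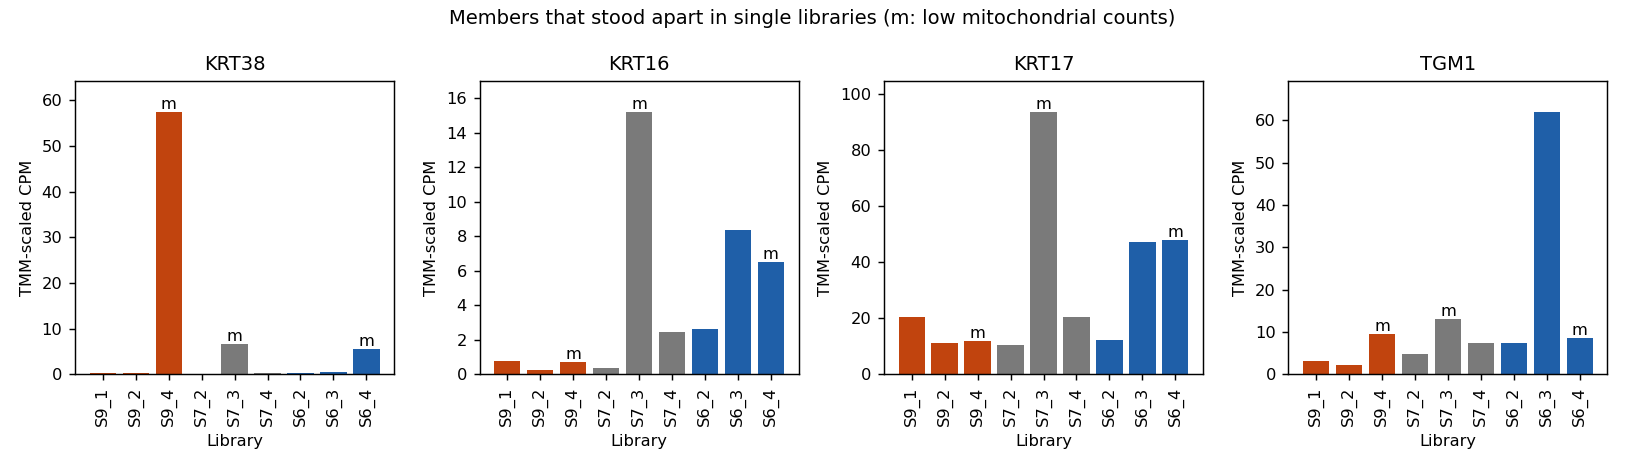
KRT38, KRT16, KRT17 and TGM1 in TMM-scaled CPM, with 1 bar per library and S9 on the left; the letter m marks the 3 libraries with low mitochondrial counts. KRT38 is highest in S9_4 and TGM1 in S6_3, while KRT16 and KRT17 are highest in S7_3.

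Among the envelope genes PPL stood alone in level per length, with a mean of 62.8 FPKM over the 9 libraries, against 7.48 FPKM for EVPL, 5.33 FPKM for KRTDAP, 4.48 FPKM for TGM1 and 2.62 FPKM for IVL. In S6_3, KRTDAP at 18.1 FPKM and TGM1 at 20.4 FPKM were above EVPL at 2.38 FPKM. PPL, the cytolinker periplakin, which also occurs in urothelium, was at 433, 359 and 614 CPM in S9, 416, 351 and 397 CPM in S7, and 528, 153 and 235 CPM in S6. S6_2 lay among the S9 libraries and S6_3 and S6_4 were the lowest (log2 fold change in S9 against S6 0.62 with SE 0.41, edgeR adjusted p = 0.340). Without S6_2 it was called higher in S9 (1.27, edgeR adjusted p = 0.0318). EVPL, its partner envoplakin, was at 61.0, 47.7 and 23.3 CPM in S9, 52.4, 56.6 and 20.05 CPM in S7, and 71.6, 16.2 and 81.2 CPM in S6. Each code held 1 library far below its other 2, the codes overlapped, and the log2 fold change in S9 against S6 was -0.36 (SE 0.61, edgeR adjusted p = 0.733).

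IVL, the envelope precursor involucrin, was at 4.15, 5.37 and 10.4 CPM in S9, 6.14, 6.16 and 6.48 CPM in S7, and 3.68, 2.82 and 3.59 CPM in S6. All S9 and S7 libraries lay above all S6 libraries, yet edgeR did not call IVL in S9 against S6 (log2 fold change 0.98 with SE 0.36, edgeR adjusted p = 0.1004) or in S7 against S6 (0.90, SE 0.36, edgeR adjusted p = 0.248). DESeq2 called IVL higher in S9 than in S6 (DESeq2 adjusted p = 0.0420), and limma-voom did not. A2ML1, a protease inhibitor of keratinocytes, was at 2.96, 3.48 and 1.99 CPM in S9, 1.88, 0.555 and 0.817 CPM in S7, and 1.52, 0.636 and 0.429 CPM in S6. Every S9 library lay above every library of the other codes. The log2 fold change was 1.70 (SE 0.64, edgeR adjusted p = 0.107) in S9 against S6 and 1.37 (SE 0.63, edgeR adjusted p = 0.545) in S9 against S7. In S9 against S6 A2ML1 was called higher by DESeq2 (adjusted p = 0.0417) and by limma-voom (adjusted p = 0.0220).

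TGM1, the membrane-bound transglutaminase that cross-links envelope proteins, was at 3.20, 2.22 and 9.56 CPM in S9, 4.72, 13.1 and 7.35 CPM in S7, and 7.48, 61.8 and 8.69 CPM in S6. Before TMM scaling, S6_3 was 4.73 times as high as the next library, and its 2042 counts made up most of the S6 total. TGM1 was not called by edgeR in S9 against S6 (log2 fold change -2.38 with SE 0.91, edgeR adjusted p = 0.114), while DESeq2 called it lower (adjusted p = 0.0180). KRTDAP, a secreted protein of differentiating keratinocytes, was also highest in S6_3, with 40, 8 and 111 counts in S9, 24, 128 and 79 in S7, and 116, 322 and 45 in S6. SBSN, the keratinocyte protein suprabasin, had 16, 2 and 105 counts in S9, 0, 92 and 10 in S7, and 27, 52 and 4 in S6, with no order by code. CNFN had 5, 0 and 0 counts in S9, 1, 29 and 1 in S7, and 39, 12 and 19 in S6, so all S9 libraries lay below all S6 libraries (edgeR adjusted p = 0.156). Limma-voom called CNFN lower in S9 than in S6 (adjusted p = 0.0353).

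Other genes of cornification were given in a list of 38, of which 29 had a row and 21 were tested. In S9 against S6, 2 of the 21 were called, both lower, or 9.52%, which is near the 12.4% of all genes, 6.34% being called lower. CSTB, the protease inhibitor cystatin B, was at 117, 121 and 126 CPM in S9, 150, 192 and 200 CPM in S7, and 245, 419 and 333 CPM in S6, with no overlap between codes (log2 fold change in S9 against S6 -1.46 with SE 0.21, edgeR adjusted p = 0.0145). ANXA1, the membrane-binding protein annexin A1, which is also abundant in neutrophils, was at 1118, 1201 and 1645 CPM in S9, 1589, 2797 and 2411 CPM in S7, and 3508, 2539 and 2412 CPM in S6, with S7 and S6 overlapping (log2 fold change in S9 against S6 -1.09 with SE 0.28, edgeR adjusted p = 0.0385). The list's median log2 fold change in S9 against S6 was -0.89, near the -0.91 of the 10 general epithelial markers, which share ST14 with it. None of the list's genes was called in the other pairwise comparisons. Of the list, LORICRIN, FLG2, CASP14, CSTA, DSC1, DMKN, ALOX12B and ABCA12 had a row but were not detected. All 17 listed transcription factors of squamous epithelium, among them KLF4, GRHL3 and PAX9, were tested, none was called in any comparison, and their median log2 fold change in S9 against S6 was -0.071.

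With only the 6 libraries of high mitochondrial counts, 2 per code, no member was called by edgeR in any comparison. Almost no gene was called there at all. Of 17223 genes tested, 7 were called in S9 against S6, 0 in S7 against S6 and 1 in S9 against S7. In these 6 libraries the log2 fold change in S9 against S6 was 1.52 for KRT15 (edgeR adjusted p = 0.0885) and 0.84 for KRT18 (edgeR adjusted p = 0.165), and 25 of the 29 members had the same sign as with 9 libraries. The 6 libraries are among the 9, so agreement of sign is partly built in, and its share over all genes was not computed. The other 3 libraries are 1 per code and allow no test. KRT15 was at 1367 CPM in S9_4, 638 CPM in S7_3 and 422 CPM in S6_4, and KRT18 at 184, 152 and 98.2 CPM in the same libraries.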

How the data were processed

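RNA of rabbit urethral tissue was extracted with an RNeasy kit and its polyadenylated part was sequenced from SMARTER libraries, per the labels' protocols. The authors deposited whole-number counts per gene, made with fastp, HISAT2 and HTSeq, per the submitters' processing notes; the sources used here give no version, genome build or strand setting, so overlapping and antisense genes cannot be told apart. They also deposited FPKM values, which equalled count over column total over a whole gene length (relative tolerance 1e-06) in all 306 member values above 0, and which were used for levels between genes and for class shares.

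Genes were kept by filterByExpr (minimum count 10, minimum total 15), which left 17102 and all 29 detected members. Counts were scaled by TMM and fitted with edgeR 4.0.16 (robust quasi-likelihood, R 4.3.3) on the 3 codes, with 6 residual degrees of freedom, a biological coefficient of variation of 41.9% and Benjamini-Hochberg adjustment over all genes within each test at 0.05. The members, classes and lists were chosen with earlier results of these data known. Values are given by rule for called members and the 3 most abundant of each class; KRT23, KRT75, KRT78, KRT80, IVL, A2ML1, CNFN and SBSN are given in addition, after their values were seen. Alternatives were other scalings, filters, tools (DESeq2 1.42.0, limma 3.58.1), a replicate block, the compared codes alone, the 6 libraries with over 0.5% mitochondrial counts, a length correction (spline with 5 degrees of freedom) and each library left out.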

Additional observations from a re-analysis of the deposited data

How the results depend on the processing

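Of 712 alternative values of 34 fold changes, 648 kept their direction and side of the threshold, 15 lost a call, 27 gained one and 22 changed sign. For S9 against S6 the 2 called members became 9 by DESeq2 and 9 by limma-voom, 0 with the replicate block, 0 in the 6 libraries with over 0.5% mitochondrial counts and 0 to 4 with 1 library left out. DESeq2 gave 4 higher and 5 lower, and limma-voom 3 higher and 6 lower. For S7 against S6 the count of 0 became 3 by DESeq2 and 1 by limma-voom, and was 0 whichever library was left out. Across the 3 codes the 1 called member became 7 by DESeq2 and 4 by limma-voom, 0 by limma on log2(FPKM + 1) and on log2(FPKM + 0.1), 0 with the block, 0 in the 6 libraries, and 0 to 1 with 1 library left out. Over all genes, S9 against S6 had 2115 called genes by edgeR, 4112 by DESeq2, 4061 by limma-voom, 16 with the block, 7 in the 6 libraries and 0 to 2076 with 1 library left out. S7 against S6 had 19 by edgeR, 1417 by DESeq2, 306 by limma-voom, 52 on log2(FPKM + 1), 37 on log2(FPKM + 0.1), 1 with the block, 0 in the 2 codes alone, 0 in the 6 libraries and 0 to 10 with 1 library left out. S9 against S7 had 0 by edgeR, 123 by DESeq2, 1 in the 6 libraries and 0 to 1 with 1 left out. The test of 3 codes had 415 by edgeR, 3305 by DESeq2, 2347 by limma-voom, 227 on log2(FPKM + 1), 2 with the block, 0 in the 6 libraries and 0 to 641 with 1 left out. The cause of these differences was not tested. Same-numbered libraries did not all deviate together (r from -0.0649 to 0.138), so the number was not taken as a pairing; with the replicate block the log2 fold change in S9 against S6 was 1.43 for KRT15 (edgeR adjusted p = 0.0632) and 0.71 for KRT18 (0.147). KRT18 also missed the threshold on log2(FPKM + 1) (0.94, limma adjusted p = 0.0523) and in the 2 codes alone (0.86, edgeR adjusted p = 0.0731). Over all alternatives the adjusted p ran from 1.97e-06 to 0.0885 for KRT15 and from 0.00479 to 0.165 for KRT18.

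Signs changed where the value was near 0 or rested on 1 library. KRT10 in S9 against S6 was 0.019 by limma-voom, 0.053 and 0.056 on log2(FPKM + 1) and log2(FPKM + 0.1), 0.087 with the block, 0.095 in the 6 libraries, 0.15 with the length correction and -0.20 to 0.14 with 1 library left out. EVPL was 0.31 in the 6 libraries and -0.78 to 0.014 with 1 left out. KRT38 was -1.21 by limma-voom, -0.15 in the 6 libraries and -2.55 to 5.64 with 1 left out, KRT13 -1.002 to 0.11 and KRT4 -1.21 to 0.099. KRT18 in S9 against S7 was 0.065 with the length correction and -0.14 to 0.042 with 1 left out.

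The 29 detected members became 33 at 5 counts and 28 at 20 counts in 3 libraries, 34 at 10 counts in 1 library and 21 at 10 counts in all 9. Shares moved by construction when counts replaced FPKM. In S9, S7 and S6 the simple share was then 38.1%, 42.0% and 47.5%, the squamous 27.6%, 34.4% and 34.3%, the basal 33.7%, 22.9% and 17.4% and the hair share 0.255% in S9. Without the most abundant member of each class the simple share was 75.0%, 73.1% and 75.7%, the basal 6.67%, 7.40% and 6.34%, the wound 0.0480% in S9 and 0.364% in S6, and the hair share 0.191% in S7 and 0.217% in S6. At the lowest library total 1 count was 0.0285 CPM, so depth limits the rarest members. KRT75 and CNFN could not be fitted at 1 CPM in 3 libraries, and the compared codes alone give no test across 3 codes.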
